A study of Drosophila melanogaster with 2 samples.

Results

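The 290 transfer RNA (tRNA) genes on the 6 nuclear arms of the Drosophila melanogaster genome, of 18164 annotated genes there, were set against the binding sites of a tagged homeodomain protein, OdsH. The members were all genes that the Ensembl BDGP6 annotation classes as tRNA, whatever their binding. They lay on 2R (98 genes), 3R (79), 3L (48), 2L (41) and X (24), with 0 on chromosome 4. The anticodon letters in each gene's symbol occurred in its own sequence for 290 of 290 genes. Any place in the gene was counted, so this is only a weak check of the class. The genes carried 22 isotypes, the classes named for the amino acid a tRNA carries, and 45 anticodons, and were 71 to 186 bases long with a median of 73.0.

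The study measured binding by chromatin immunoprecipitation and sequencing in whole larvae of the third instar, at the wandering stage. They were of a transgenic strain, OdsH-GFP, that stably carried OdsH with green fluorescent protein (GFP) at its C terminus, and an anti-GFP antibody was used for precipitation. The single group had 2 biological replicates, each with chromatin sonicated to 200 to 800 bp, and no other genotype, treatment or time. The larvae were of uncollected sex, and which cells held the fusion protein is not given in the labels. Since whole animals were used, few cells with strong binding and many cells with weak binding cannot be told apart. No expression was measured, so the labelled stage could not be checked against marker genes.

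Nuclear tRNA genes are transcribed by RNA polymerase III from a promoter that lies inside the gene. The factor TFIIIC binds an A box and a B box within the transcribed sequence and places TFIIIB, which contains Brf and Bdp1, just upstream of the start, where it recruits the polymerase, and transcription ends at a run of T. Many tRNA genes have identical copies, often in clusters. OdsH encodes a homeodomain protein known from hybrid male sterility, and homeodomains commonly bind sequences with a TAAT core.

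The 3 genes below stand for the members the results turn on: the tRNA genes with the strongest and the next strongest summit over 500 bp from coding starts, and the gene with the nearest thresholded summit. A summit is the position of highest signal in a peak. Each sequence is from the dm6 build (Release 6, RefSeq), on the strand of the gene, with 30 bases before the gene and 10 after it. Capitals mark the core of the B box, GTTCNANNC, which was present in 271 of the 290 tRNA genes.
tRNA:Gln-TTG-2-1 gene, chrX:3427442-3427553 (-): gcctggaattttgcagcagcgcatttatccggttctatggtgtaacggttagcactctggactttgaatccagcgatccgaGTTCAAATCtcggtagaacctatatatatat
tRNA:Lys-TTT-1-1 gene, chr2L:8290697-8290809 (+): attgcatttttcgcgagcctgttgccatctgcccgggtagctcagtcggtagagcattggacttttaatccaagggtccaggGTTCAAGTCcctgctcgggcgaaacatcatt
tRNA:Ser-AGA-2-4 gene, chr2L:3172993-3173114 (-): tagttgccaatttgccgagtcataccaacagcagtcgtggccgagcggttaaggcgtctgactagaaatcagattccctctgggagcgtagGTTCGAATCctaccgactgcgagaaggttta
All 3 genes carry the core near their end. The next 5 sequences are thresholded summits with 50 bases on either side: at those 3 genes and at the glutamate and glycine tRNA genes next in signal that could be shown. Capitals mark TAAT, the homeodomain core, or ATTA, the same core on the other strand.
tRNA:Gln-TTG-2-1 summit, chrX:3427690-3427790 (-): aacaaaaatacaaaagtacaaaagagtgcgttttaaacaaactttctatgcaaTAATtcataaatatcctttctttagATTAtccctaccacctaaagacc
tRNA:Lys-TTT-1-1 summit, chr2L:8291000-8291100 (+): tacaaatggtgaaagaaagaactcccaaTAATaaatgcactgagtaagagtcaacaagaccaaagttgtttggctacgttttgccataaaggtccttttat
tRNA:Glu-CTC-3-1 summit, chr3L:1378955-1379055 (+): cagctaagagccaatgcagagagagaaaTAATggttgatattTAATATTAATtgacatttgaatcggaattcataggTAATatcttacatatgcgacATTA
tRNA:Gly-GCC-1-6 summit, chr2L:14519432-14519532 (-): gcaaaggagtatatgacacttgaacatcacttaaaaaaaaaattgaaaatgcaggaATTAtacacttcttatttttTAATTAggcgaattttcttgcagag
tRNA:Ser-AGA-2-4 summit, chr2L:3173058-3173158 (-): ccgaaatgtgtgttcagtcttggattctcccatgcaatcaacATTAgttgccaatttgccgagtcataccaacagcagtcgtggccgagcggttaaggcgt
The glutamate tRNA summit held 6 such cores, the glycine tRNA summit 3, of which a pair overlapped as the palindrome TAATTA, the glutamine tRNA summit 2, and the other two 1 each. The serine tRNA summit lay 24 bp before its gene, so its window runs into the gene itself, while the other 4 windows hold only flanking sequence.

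High-confidence OdsH-GFP peaks were found at a small share of tRNA genes and, away from coding promoters, at about the share seen for genes classed as ncRNA. A list thresholded by the authors on the irreproducible discovery rate, a measure of how alike peaks rank between replicate lists, held 7223 peaks. Of the 290 tRNA genes, 50 (17.2%, 95% Wilson interval 13.3 to 22.0) had a thresholded summit within 1 kb of their start. The background was 25.9% of the 13945 protein-coding genes and 15.5% of the 3261 ncRNA genes of the annotation. For 17 of the 50 tRNA genes, each summit within 1 kb was also within 500 bp of a coding start, where a coding promoter could hold the peak. The other 33 tRNA genes (11.4%, 8.22 to 15.6) had a summit over 500 bp from every coding start, against a background of 10% of ncRNA genes. Among the 189 tRNA genes that themselves lay over 1.5 kb from every coding start, 28 (14.8%, 10.5 to 20.6) had a thresholded summit within 1 kb, against 10.8% of the 2034 such ncRNA genes. Of all bases that far from coding starts, 5.65% lay within 1 kb of a thresholded summit. The intervals cover counting error over genes only, and clustered genes share summits, so they are too narrow. Read numbers, not given in the sources used here, were unknown, and the depth behind a peak is unknown too.

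Weak summits, in contrast, were frequent at tRNA genes. The relaxed lists, which by design hold background beside peaks, have 30000 peaks in each replicate and in both replicates pooled. A relaxed pooled summit lay within 1 kb of 185 tRNA genes (63.8%, 58.1 to 69.1), against a background of 55.7% of protein-coding genes and 43.9% of ncRNA genes. Away from coding starts, 166 tRNA genes had one (57.2%, 51.5 to 62.8), against 33.6% of ncRNA genes and 25.3% of snoRNA genes. Of the 189 tRNA genes over 1.5 kb from coding starts, 117 had a relaxed summit (61.9%, 54.8 to 68.5), against 36.5% of such ncRNA genes and 21.8% of such bases. The replicate lists gave nearly the same counts, with 165 tRNA genes in replicate 1 and 166 in replicate 2 away from coding starts. In 117 tRNA genes (40.3%, 34.9 to 46.1) both replicates had a summit away from coding starts within 200 bp of each other, against 24.9% of ncRNA genes. The whole set divided into 33 genes with a thresholded summit away from coding starts, 84 with weaker summits there that both replicates shared, 49 with a relaxed pooled summit there but no such pair, 19 with summits at coding promoters alone, and 105 with no pooled summit within 1 kb. The 17 genes with a thresholded summit only at a coding promoter fell into these classes as 6 of the 84, 3 of the 49 and 8 of the 19.

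**Figure D1:**
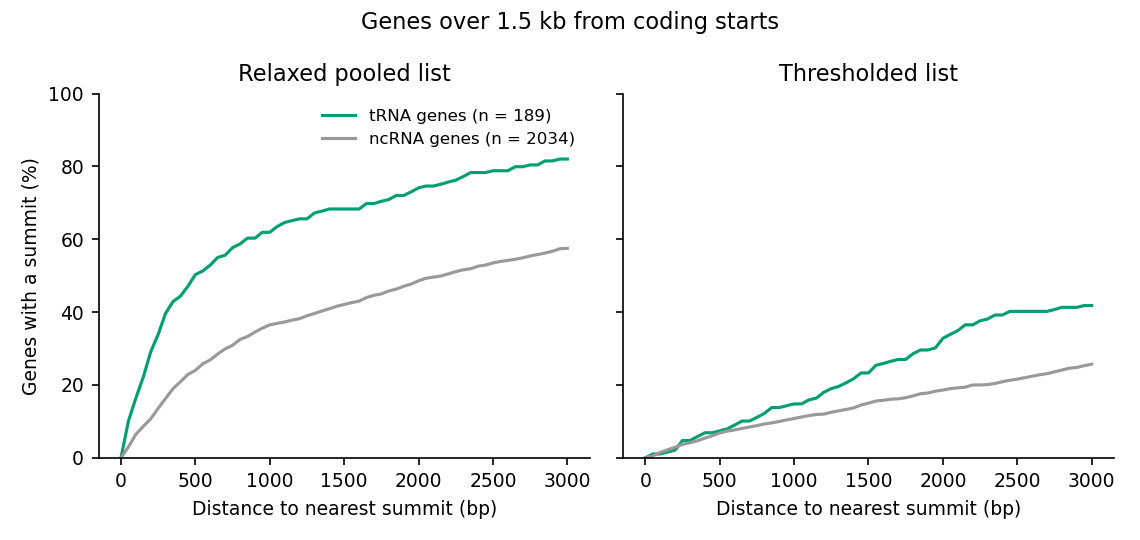
Share of genes over 1.5 kb from coding starts (y axis, percent) whose start had a summit within the distance on the x axis (bp), for 189 tRNA genes (green) and 2034 ncRNA genes (grey); left, relaxed pooled list, right, thresholded list. In the relaxed list the curves part from the first bins, with 33.9% of tRNA genes and 13.6% of ncRNA genes within 250 bp, while in the thresholded list they run together to 500 bp (7.41% and 6.83%) and part beyond it. Beyond 1 kb the curves can include summits at coding starts.

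The plot of genes by distance shows where the difference lay. Within 250 bp of the start, 33.9% of the 189 tRNA genes had a relaxed summit against 13.6% of ncRNA genes, and within 500 bp 50.3% against 24.0%. For thresholded summits the shares were 4.76% and 3.69% within 250 bp, 7.41% and 6.83% within 500 bp, and 32.8% and 18.6% within 2 kb. A search of 2 kb can reach coding promoters, and with their summits left out the shares at 2 kb were 29.1% and 17.5%. The shares thus lay apart at short range in the relaxed list, and in the thresholded list at 2 kb but hardly at 500 bp. Neighbouring genes are not independent, so these differences are descriptions with no test.

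Since clustered genes share summits, each summit was also counted once and set against the bases searched. Over bases more than 500 bp from coding starts, relaxed pooled summits lay at 680.1 per Mb within 250 bp of the nearest tRNA start (77 summits), which was 3.86 times the level of 176 per Mb over all arms. Replicate 1 gave 680.1 per Mb (77 summits, 3.90 times its level over all arms) and replicate 2 gave 662 per Mb (75 summits, 3.71 times). Both replicates thus gave a density in this ring above every ring farther out. From 250 to 500 bp the pooled density was 366 per Mb, and from 1 to 2 kb it was 316 per Mb. It was still 282 per Mb, or 1.60 times the level over all arms, at 5 to 10 kb. The neighbourhoods of tRNA genes were thus rich in summits well beyond the genes themselves, and the part of this in the shares within 1 kb was not tested. Around ncRNA starts the pooled density within 250 bp was 348 per Mb and from 250 to 500 bp 335 per Mb, so it did not have the same rise in the innermost ring. Thresholded summits did not follow this pattern: 8 lay within 250 bp of a tRNA start (70.7 per Mb, 1.94 times), 2 from 250 to 500 bp, and 13 from 500 bp to 1 kb (94.8 per Mb, 2.61 times), while around ncRNA starts the innermost ring had 92.3 per Mb. The control library was not analysed here, so the part that signal without the tagged protein has in the weak summits was not tested.

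**Figure D2:**
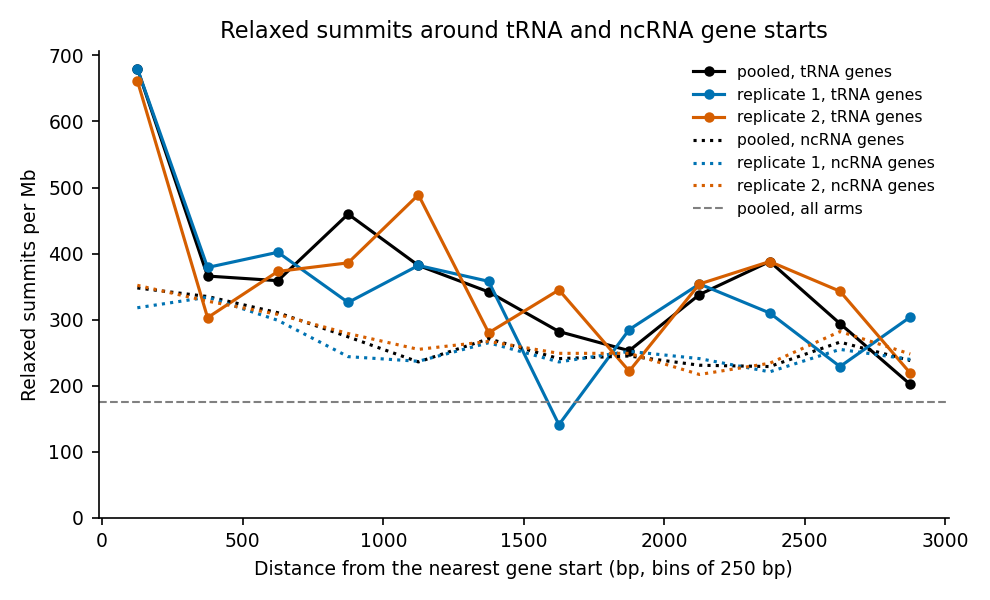
Relaxed summits per Mb (y axis) in bins of 250 bp of distance from the nearest gene start (x axis), over bases more than 500 bp from coding starts; solid lines with points are tRNA starts and dotted lines ncRNA starts, in the pooled list (black), replicate 1 (blue) and replicate 2 (orange), and the dashed line is the pooled level over all arms. The first bin at tRNA starts is at 680.1, 680.1 and 662 per Mb in these lists, and the dotted lines lie between 318 and 352 in their first bin.

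The summits lay on both sides of the tRNA genes. Of 162 distinct relaxed pooled summits within 1 kb and away from coding starts, 88 were upstream of the nearest tRNA gene, 20 inside it and 54 downstream, with a median position of -32 bp from the start (quartiles -293 and 209.8). In replicate 1 the counts were 83, 24 and 50 with a median of -22.0 bp, and in replicate 2 they were 86, 16 and 49 with a median of -45.0 bp. The medians of both replicates lay upstream, but by little beside the spread of the positions and the length of the sonicated fragments. The search also ran equally far on either side of the start, which by itself draws a median toward the start. No centre upstream of the start is therefore read from these medians. The 23 distinct thresholded summits were more scattered, with 13 upstream, 2 inside and 8 downstream, and a median distance of 540.0 bp in either direction, against 262 bp for the relaxed summits.

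The values of the thresholded summits at tRNA genes were of middle rank. The signal is the value of the authors' peak caller, on an unstated scale, and the lowest thresholded value was 109. The 23 summits away from coding starts had a median pooled signal of 157 (113 to 648), against 185 for all 4304 thresholded summits that far from coding starts. The median of their signals was 80.9 in replicate 1 and 91.5 in replicate 2. Each of the 35 thresholded summits within 1 kb of a tRNA gene, 12 of them at coding starts, had a replicate summit within 200 bp in both replicates, as did 7173 of all 7223. Of the 162 relaxed summits, 139 were below the thresholded range. The median of all 162 was 48.5, against 50.6 for all relaxed summits away from coding starts. Of the 162, 95 (58.6%) had such a partner in both replicates, against 66.0% of all relaxed summits away from coding starts. The relaxed summits at tRNA genes, strong and weak together, were thus no stronger and not more often shared by the replicates than all relaxed summits away from coding starts. In the thresholded range were 23 of the 162 and 4304 of the 20862, and the weak summits were not compared alone.

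**Figure D3:**
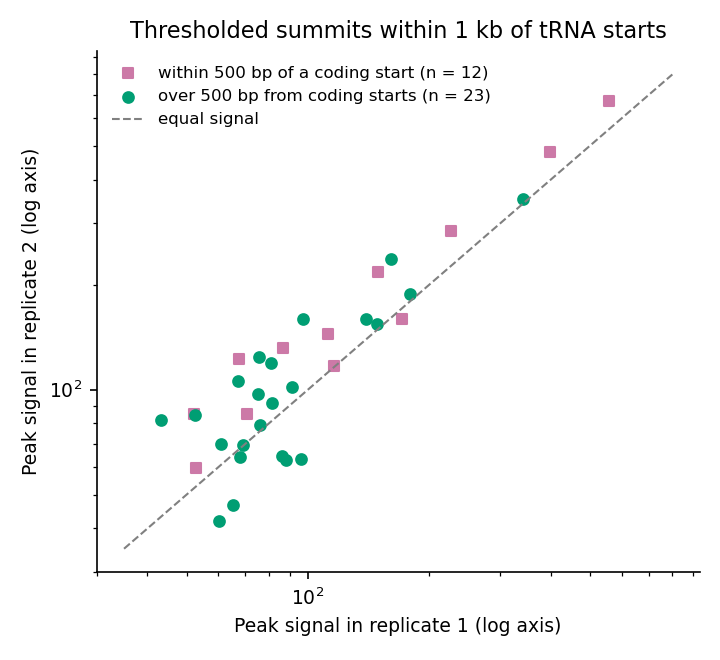
Peak signal in replicate 1 (x axis) and replicate 2 (y axis), both on log axes and in the caller's unstated unit, for the 35 thresholded summits within 1 kb of tRNA starts; green circles are 23 summits over 500 bp from coding starts, pink squares 12 within 500 bp, and the dashed line is equal signal. Replicate 2 was higher for 17 of the 23 circles, and the highest values are squares, up to 556 and 671.

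The strongest thresholded summit over 500 bp from coding starts was at tRNA:Gln-TTG-2-1 (FBgn0052493, chrX:3427452-3427523, minus strand), whose sequence is printed above and which decodes a glutamine codon. It reached a signal of 648 pooled, 342 in replicate 1 and 352 in replicate 2, and lay 217 bp upstream of the gene, and it ranked 468 of the 7223. The nearest coding start, of CG14269, was 8067 bp away. Next was tRNA:Lys-TTT-1-1 (FBgn0011902, chr2L:8290727-8290799, plus strand), a lysine tRNA gene with 388 pooled, 161 in replicate 1 and 236 in replicate 2, 323 bp downstream of its start. The nearest coding start there, of the kinase gene Btk, was 6074 bp away, and a second thresholded summit of 437 lay 1894 bp downstream of the tRNA start. Both genes lay inside a coding gene, outside its exons, and neither had another tRNA gene within 2 kb.

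**Figure D4:**
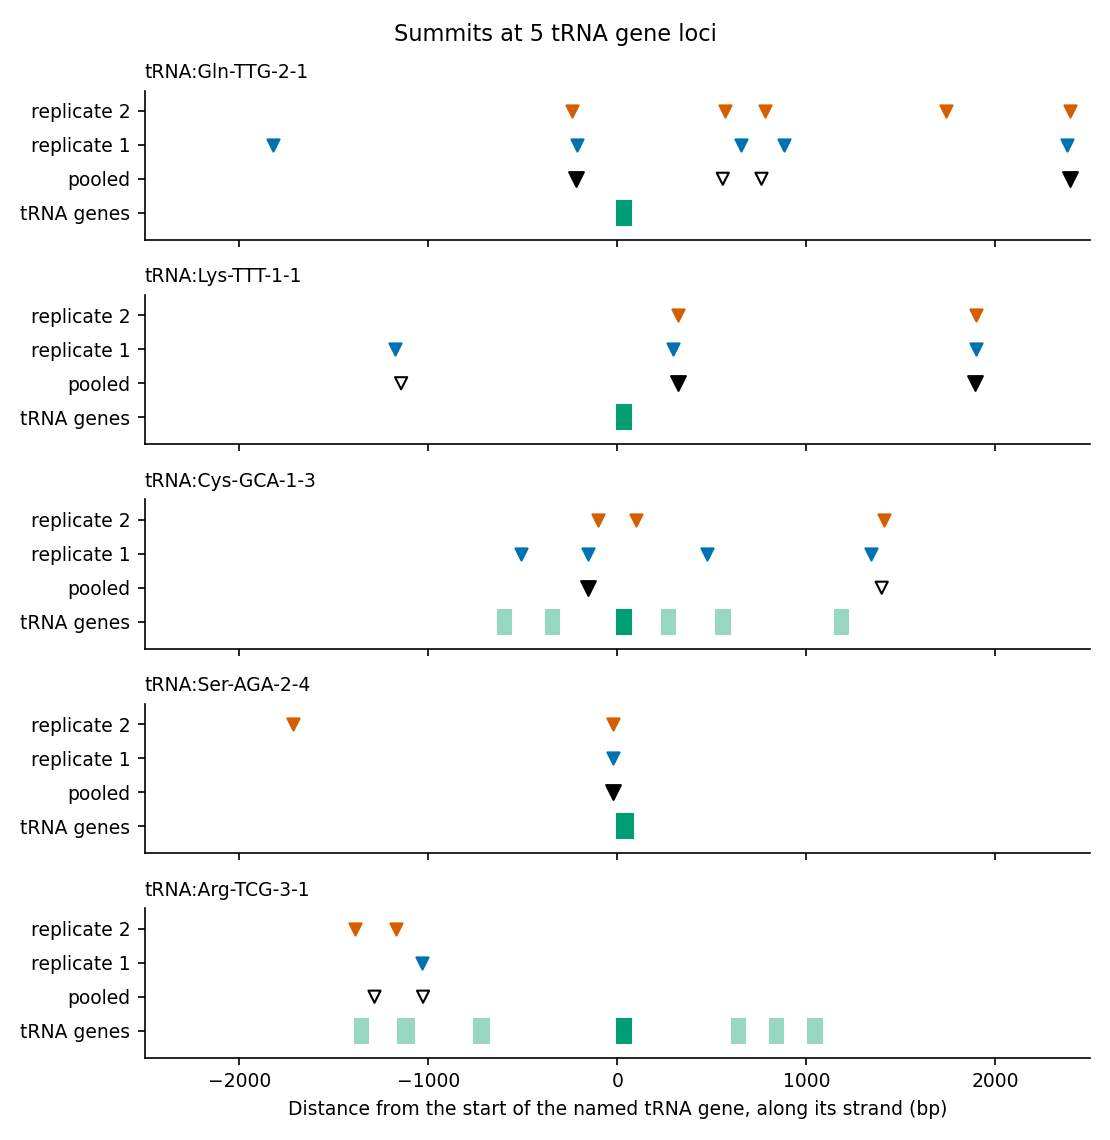
Positions of summits (triangles) and tRNA genes (green boxes, the named gene darker) at 5 loci, against distance from the start of the named gene along its strand (x axis, bp), in 4 tracks: genes, pooled list (black, filled where thresholded, open where relaxed only), replicate 1 (blue) and replicate 2 (orange). The summits at -217 bp of tRNA:Gln-TTG-2-1, 323 bp of tRNA:Lys-TTT-1-1 and -24 bp of tRNA:Ser-AGA-2-4 recur in both replicates, 1 thresholded summit lies among the first genes of the cysteine and lysine cluster, and the arginine and serine cluster holds only relaxed summits.

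Of the 19 glutamate tRNA genes, 7 had a thresholded summit away from coding starts, and these 7 rested on 3 summits. On 2R, tRNA:Glu-TTC-1-5, tRNA:Glu-TTC-1-6 and tRNA:Glu-CTC-2-1 shared one of 362 pooled, 179 in replicate 1 and 188 in replicate 2, at 226, 747 and 954 bp from their starts. tRNA:Glu-CTC-3-1 on 3L had its own at -929 bp, with 301 pooled, 148 in replicate 1 and 154 in replicate 2. tRNA:Glu-CTC-1-1 had a summit inside the gene, 26 bp from its start, also within 1 kb of tRNA:Glu-TTC-1-1 and tRNA:Glu-TTC-1-2, with 149 pooled, 88.4 in replicate 1 and 62.7 in replicate 2. The replicates were close at the first pair of glutamate summits, and replicate 1 was higher at the last.

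The 3 thresholded summits nearest to a tRNA start were at serine and glutamate genes, the glutamate one being that of tRNA:Glu-CTC-1-1. The summit of tRNA:Ser-AGA-2-4 (FBgn0011984, chr2L:3173003-3173084, minus strand) was 24 bp upstream of its start, with 149.6 pooled, 86.4 in replicate 1 and 64.5 in replicate 2, and 732 bp from the start of CG31698. It lay outside coding genes. tRNA:Ser-CGA-1-4 on 2R had a summit inside the gene, 31 bp from its start, which it shared with the valine genes tRNA:Val-AAC-2-1 at -216 bp and tRNA:Val-AAC-2-2 at -642 bp. That summit had 149 pooled, 52.4 in replicate 1 and 84.5 in replicate 2. tRNA:Ser-AGA-2-2 on X had one at -821 bp with 175 pooled, 67.2 in replicate 1 and 106 in replicate 2. For the AGA anticodon, then, a summit was near 1 gene and far from the other, and which replicate was higher differed between genes.

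Other isotypes had mostly distant summits. tRNA:Gly-GCC-1-6 on 2L had one at -791 bp with 288 pooled, 139 in replicate 1 and 159 in replicate 2. tRNA:Ala-AGC-2-1 on 3L had one at 775 bp with 260.1 pooled, 97.4 in replicate 1 and 159.8 in replicate 2. tRNA:Thr-AGT-1-1 on 2L had one at 849 bp with 177 pooled, 75.3 in replicate 1 and 97.3 in replicate 2. These 3 genes carry the glycine, alanine and threonine tRNAs, and all 3 summits were higher in replicate 2. On 3L the leucine gene tRNA:Leu-CAA-2-2 and the proline gene tRNA:Pro-AGG-1-7 shared their strongest summit, of 190.3 pooled, 80.9 in replicate 1 and 119 in replicate 2, at -858 and 886 bp. Each also had a nearer, weaker thresholded summit. For tRNA:Leu-CAA-2-2 it lay at -564 bp with 155 pooled, 96.2 in replicate 1 and 63.3 in replicate 2. For tRNA:Pro-AGG-1-7 it lay at 624 bp with 156 pooled, 75.7 in replicate 1 and 124 in replicate 2. On 2R the arginine genes tRNA:Arg-CCT-1-2 and tRNA:Arg-CCT-1-3 shared a summit of 185 pooled, 91.4 in replicate 1 and 102 in replicate 2, at -321 and -130 bp. The isoleucine gene tRNA:Ile-AAT-1-8 had one at 314 bp with 180.4 pooled, 81.6 in replicate 1 and 91.5 in replicate 2, 625 bp from the start of ATP8A. For these shared summits the lists do not say which tRNA gene, if any, the peak belongs to.

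The strongest peaks near tRNA genes were at coding promoters. tRNA:Tyr-GTA-1-7 and tRNA:Tyr-GTA-1-8 on 3R had a summit of 1215 pooled, 556 in replicate 1 and 671 in replicate 2, at -677 and -208 bp, which was 236 bp from the start of CG8036. It ranked 95 of the 7223. tRNA:Val-TAC-1-1 on 3L had one of 847 pooled, 397 in replicate 1 and 481 in replicate 2, 183 bp from the start of CG46456. tRNA:His-GTG-1-2 and tRNA:His-GTG-1-3 on 2R had one of 507 pooled, 226 in replicate 1 and 284 in replicate 2, which was 70 bp from the start of CG8490. In all 3 cases replicate 2 was higher. tRNA:Val-CAC-2-5 on 3R had one of 367 pooled, 149 in replicate 1 and 218 in replicate 2, 433 bp from the start of the nicotinamidase gene Naam, the farthest inside the limit of 500 bp. The nearest outside it was a second summit of tRNA:Ile-AAT-1-8, at 606 bp with a signal of 157. For the limit of 1 kb from the tRNA start, the last inside was 984 bp (tRNA:Thr-AGT-1-4, signal 239) and the first outside was 1081 bp (tRNA:Met-CAT-1-2, signal 276).

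Among the tRNA genes with relaxed summits only, the highest values were just under the thresholded range. tRNA:Ser-TGA-1-1 and tRNA:Ser-TGA-2-1 on 2R shared a summit of 96.1 pooled, 40.4 in replicate 1 and 51.1 in replicate 2, at -111 and -370 bp. tRNA:Gly-GCC-1-7 and tRNA:Gly-GCC-2-1 on 2L shared one of 91.6 pooled, 26.3 in replicate 1 and 65.8 in replicate 2, at -820 and -512 bp. tRNA:Gln-CTG-2-4 and tRNA:Gln-CTG-3-1 on 2L shared one of 89.7 pooled, 46.0 in replicate 1 and 42.6 in replicate 2, at 44 and 267 bp. The replicates were close for the serine and glutamine pairs and far apart for the glycine pair.

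Binding was spread over isotypes. Thresholded summits away from coding starts occurred in 13 of 22 isotypes and 20 of 45 anticodons, and relaxed summits shared by both replicates in 21 isotypes and 40 anticodons. Beside glutamate, the cysteine (3 of 7), lysine (4 of 19), serine (3 of 20) and arginine (3 of 26) genes had at least 3 genes with a thresholded summit away from coding starts. The 3 cysteine genes and a pair of the lysine genes shared 1 summit. The 9 isotypes with none away from coding starts were Asn, Asp, His, Met, Phe, SeC (selenocysteine), Trp, Tyr and iMet, the initiator methionine tRNA that starts translation. Of these, Asp, His, Met, Phe, Trp and Tyr had thresholded summits at coding starts alone. All 6 initiator genes had a relaxed summit away from coding starts, in both replicates for 4 of them, whereas 1 of the 6 elongator Met genes did. Asparagine (9 of 10) and isoleucine (10 of 11) genes were also near complete, and tryptophan (1 of 8), glycine (6 of 20) and valine (5 of 15) genes were low. With few genes to an isotype and with clusters of one isotype sharing summits, these shares are descriptions.

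**Figure D5:**
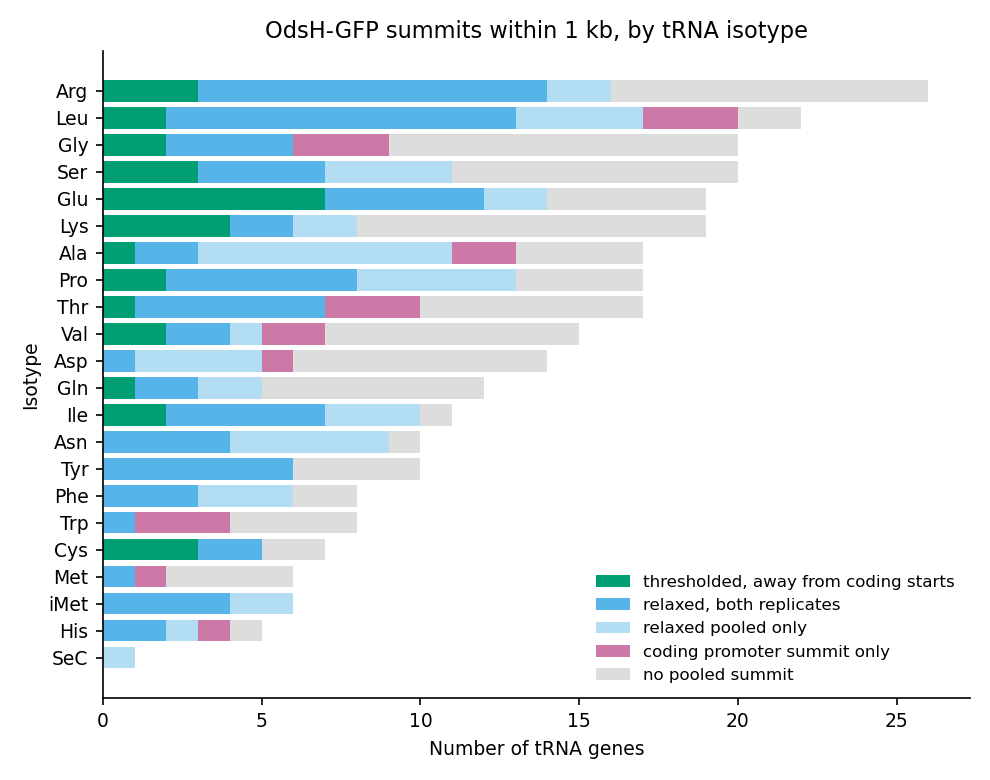
Number of tRNA genes (x axis) of each isotype (y axis), stacked by the summits within 1 kb of their start: thresholded over 500 bp from coding starts (green), relaxed in both replicates (blue), relaxed pooled only (light blue), summits at coding promoters only (pink) and no pooled summit (grey). Green segments occur in 13 isotypes and are longest for Glu, with 7 of 19 genes on 3 summits; blue and light blue genes can also have a thresholded summit at a coding promoter.

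By chromosome arm, the share of tRNA genes with a thresholded summit away from coding starts was 18.8% on 3L, 16.3% on 2R, 12.5% on X and 9.76% on 2L, and it was 1.27% on 3R. The same shares of ncRNA genes were 10.4% on 3L, 12.2% on 2R, 7.45% on X, 11.4% on 2L and 8.49% on 3R. The tRNA shares rest on 6 distinct summits on 3L, 9 on 2R, 3 on X, 4 on 2L and 1 on 3R, and 5 of the 9 genes on 3L shared a single summit. The 1 gene of 79 on 3R was the leucine gene tRNA:Leu-TAA-4-1, with a pooled signal of 114, which was named after its value was seen. Relaxed summits of both replicates were found for 49.0% of tRNA genes on 2R, 47.9% on 3L, 34.1% on 2L, 31.6% on 3R and 29.2% on X. For ncRNA genes these shares were 23.8%, 30.6%, 26.6%, 23.4% and 18.8% in the same order of arms. No difference between arms was tested.

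Clustered tRNA genes had relaxed summits more often than lone ones, and shared them. Joining genes with starts within 2 kb of the next gave 160 loci, of which 91 held 1 gene. A relaxed summit away from coding starts was found for 37 of these 91 lone genes (40.7%) and for 129 of the 199 clustered genes (64.8%), and for both replicates the shares were 25.3% and 47.2%. Thresholded summits away from coding starts were found at 12.1% of lone and 11.1% of clustered genes. With those at coding starts included, the shares were 16.5% and 17.6%. Counted by locus, 86 of 160 loci (53.8%) had a relaxed summit away from coding starts, 59 (36.9%) had one in both replicates, and 20 (12.5%) had a thresholded one. Each gene was searched over the same 1 kb on either side of its start, so the shares by gene rest on equal windows. A locus of many genes covers more sequence, and its part in the counts by locus was not tested. The difference between lone and clustered genes was not tested either.

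The largest clusters, with 7 genes each, differed in binding. The initiator methionine and glutamate cluster at chr2R:19725620-19728958 (dm6) had relaxed summits shared by both replicates within 1 kb of all 7 genes, with a strongest signal of 362. The isoleucine and leucine cluster at chr2R:13430282-13432794, inside a coding gene, had them at 6 of 7 genes, the strongest away from coding starts at 77.1 pooled, 22.7 in replicate 1 and 57.0 in replicate 2, with no thresholded summit. The arginine and serine cluster at chrX:14014814-14017284 had them at 3 of 7 genes, where the pooled summit with a partner in both replicates had 32.3 pooled, 17.2 in replicate 1 and 16.9 in replicate 2. A pooled summit of 33.9 there had a partner only in replicate 2, with 25.8. A cluster of 4 cysteine and a pair of lysine tRNA genes at chr3L:3095737-3097590 had 1 thresholded summit of 137 within 1 kb of 5 of its 6 genes, and it lay 154 bp upstream of tRNA:Cys-GCA-1-3. That cluster and the arginine and asparagine cluster at chr3R:8139533-8141042, where 6 of 6 genes had relaxed summits of both replicates and none had a thresholded one, fell outside the rule for named genes and were chosen after their values were seen.

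Genes with and without identical copies were also compared. A relaxed summit away from coding starts was found for 59.6% of the 52 tRNA genes with a unique sequence and 56.7% of the 238 with identical copies, where reads inside the gene could come from any copy. In both replicates it was found for 46.2% and 39.1%. Of the 134 tRNA genes inside a coding gene, 15.7% (10.5 to 22.8) had a thresholded summit away from coding starts, against 7.69% (4.45 to 13.0) of the others. The shares with a relaxed one were 56.7% and 57.7%. Clustered genes inside coding genes shared thresholded summits, with 5 genes of the cysteine and lysine cluster on 3L at a single one. The same shares of ncRNA genes were not counted, and the difference was not tested.

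Summits near tRNA genes had homeodomain cores about as often as other summits. The 23 thresholded summits, each with 50 bases on either side, had a median AT content of 68.3%, equal to that of all 4304 thresholded summits away from coding starts. TAAT, sought on both strands, was in 17 of the 23 windows (73.9%), against 77.1% of the 4304, and the palindrome TAATTA, which contains it, was in 2 (8.70%) against 10.2%. The 162 relaxed summits had a median AT content of 60.4%, against 62.4% for all relaxed summits away from coding starts. Their shares with TAAT were 67.3% against 67.7%, and with TAATTA 6.17% against 7.53%. The B box core GTTCNANNC, on either strand, was in 14.2% of the relaxed windows near tRNA genes and in 29.9% of the 77 within 250 bp, against 2.70% of all. All 23 relaxed windows near tRNA genes that held it were within 250 bp of a tRNA start, and 93.4% of tRNA genes carry the core, so the choice of windows beside these genes sets this share and nothing is read from it. The tRNA genes themselves had a median AT content of 41.5%, and the 100 bases before them 63.0%. TAAT was present in those 100 bases for 193 of the 290 genes, in 65.8% of the genes with relaxed summits of both replicates and 67.1% of the rest. The full B box consensus was found in 58.1% and 44.5% of these groups. A match is a description of letters and not a site of binding.

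Among other short RNA genes transcribed by RNA polymerase III, 3 had a thresholded summit within 1 kb, namely 2 of 3 U6 genes and 1 of 2 7SK genes. The share over all ncRNA genes, given above, was 15.5%. The families are small except for the 96 5S genes, which had none, so no joint share is set against it. Of 3 genes for U6, the spliceosomal RNA that forms the catalytic core, snRNA:U6:96Ab and snRNA:U6:96Ac on 3R shared a summit of 316 pooled, 149 in replicate 1 and 171 in replicate 2, at 411 and -112 bp from their starts and 8086 bp from the nearest coding start, of Esyt2. Of the pair of 7SK genes, whose RNA restrains the elongation factor P-TEFb, snRNA:7SKa had a summit 233 bp from its start with 146 pooled, 75.7 in replicate 1 and 67.7 in replicate 2. The replicates were close at both summits. The 7SL, RNase P, RNase MRP and U6atac genes had none in the thresholded list, nor did any of 96 5S ribosomal RNA genes. Beside the 43.9% of ncRNA genes with a relaxed summit within 1 kb, 2 of the 96 5S genes had one, at 772 and 910 bp. These summits lay 37 and 258 bp from the start of tRNA:Glu-CTC-2-2, in the neighbouring tRNA cluster. The 5S genes are repeated copies of one another, so they are not independent, and reads inside them could come from any copy.

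Coding genes for polymerase III subunits, for its initiation factors and regulators, and for tRNA processing and modification were counted by the same distance. Not all of the listed regulators, such as Myc and the Pbp genes, act on tRNA genes alone. Of 57 such genes, 24 (42.1%) had a thresholded summit within 1 kb of a start, beside the 25.9% of all coding genes given above, and 41 (71.9%) had a relaxed one, beside 55.7%. This difference was not tested. By role those with a thresholded summit were 7 of 16 polymerase III subunits, 3 of 9 initiation factors and regulators, and 14 of 32 processing and modification genes. The 7 subunit genes include Polr1D, Polr2F and Polr2H, which are named for polymerases I and II. Tcs5, a kinase of the KEOPS complex, which in yeast modifies the base beside the anticodon, had the highest at 2259 pooled, 916 in replicate 1 and 1354 in replicate 2, ranked 13. Trmt6, whose yeast counterpart is a subunit of a tRNA adenosine methyltransferase, had 868 pooled, 357 in replicate 1 and 525 in replicate 2. Both were higher in replicate 2. Bdp1, of TFIIIB, had 771 pooled, 342 in replicate 1 and 423 in replicate 2, but the summit was nearest to another start, of CG6565, at 30 bp. Brf, also of TFIIIB, had 714 pooled, 336 in replicate 1 and 381 in replicate 2, nearest to the start of sds22 at 113 bp. RluA-1, a pseudouridine synthase gene, had 514 pooled, 215 in replicate 1 and 291 in replicate 2. The subunit gene Polr3E had 445 pooled, 210.0 in replicate 1 and 248 in replicate 2, nearest to the start of CG10584 at 178 bp. For Bdp1, Brf and Polr3E, which promoter of each closely spaced pair the peak belongs to cannot be told apart from the lists.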

How the data were processed

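Peak lists of 1 group with 2 biological replicates were used in dm6 coordinates, per the file listings: a relaxed list for each replicate, one for both pooled, and one thresholded on the irreproducible discovery rate. The authors ran an aligner and peak caller not given in the sources used here. Lists in dm3 were not used. The deposited signal value of each peak is the authors' caller's, on an unstated scale, and was used to rank and describe peaks. The deposited −log10 q-value was not used. Depth is unknown.

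Summits (peak start plus offset) were set against gene starts of the Ensembl BDGP6 annotation, release 115, and Release 6 sequence. Summits within 500 bp of any protein-coding start were kept apart. A replicate's signal is that of its strongest summit within 200 bp. Distance functions were tested on simulated data. Of the list of polymerase III and tRNA processing genes, 6 entries had no match and 1 resolved to a gene already listed. The members and lists, and the ncRNA comparison by ring, were chosen with earlier results of these data known. Named genes were the 20 tRNA genes with the strongest thresholded summit over 500 bp from coding starts, the 6 strongest at coding starts, the 6 strongest with relaxed summits only, the 3 nearest pairs, the largest clusters, bound polymerase III RNA genes and the 6 strongest bound coding genes of the list. With 1 group, no condition was compared and no test was run. Alternatives were other distances, overlap, stronger peaks, other coding start rules, and each replicate left out. The scripts ran on Python 3.11.15, with pandas 2.3.3, numpy 2.4.6, matplotlib 3.10.9 and scipy 1.17.1.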

Additional observations from a re-analysis of the deposited data

How the results depend on the processing

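Of 52 alternatives, 30 left a value within 1.5 times or within the spread of the reported one, and 22 moved it, mainly through distance. The 50 tRNA genes with a thresholded summit became 17 within 250 bp, 27 within 500 bp, 93 within 2 kb, 12 where the peak overlapped the gene and 23 with the stronger part of the list split at its median signal. The 33 away from coding starts became 11, 17, 61, 10 and 10 in that order, and the 28 over 1.5 kb from coding starts became 9, 14, 62, 8 and 10. The 62 include genes with summits at coding starts only, and 55 had a summit away from coding starts. Other rules for coding starts gave 26 to 37 in place of 33. The 185 with a relaxed summit became 105 within 250 bp and 103 by overlap. With 1 replicate left out these counts were 50 to 54, 33 in both cases, 29 to 30 and 184 to 185. The median signal of 157 became 80.9 to 91.5 in a single replicate, and the cause was not tested. The median distance of 540.0 bp became 168 bp within 500 bp, and 498 to 562 bp with a replicate left out. The relaxed list gave 7 in place of 3 other polymerase III RNA genes, and 41 in place of 24 coding genes. No paired analysis was possible because there was 1 group and no comparison between groups. Depth is unknown, and the relaxed lists end at 30000 peaks whatever their strength.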
